A study of Mus musculus with 8 samples.

Results

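Gene expression in C low-threshold mechanoreceptors (C-LTMRs) lacking Bhlha9 was compared with that in wild-type C-LTMRs over males and females together. All 4 knockout (KO) libraries were set against all 4 wild-type (WT) libraries, with sex as an additive term in 1 model. Of the 55573 genes in the count file, 22013 had enough counts to be tested and 11858 had a mean of at least 5 CPM (read counts scaled to the library total) over the 8 libraries. Those 11858 genes are the ones described. The 4 groups were male WT, male KO, female WT and female KO mice, all adult, with 2 libraries in each (n = 2 per group and n = 4 per genotype). The KO groups are labelled bhlha9 KO and the WT groups carry no named change in that gene. In every group the cells were sorted by flow cytometry for GFP. The allele that carries GFP, the strain and the number of animals behind a library are not given in the sources used here. The submitters state that the libraries of a group are biological replicates, and the p-values rest on that.

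C-LTMRs are unmyelinated neurons of the dorsal root ganglia that innervate hairy skin and respond to light, slow touch and to cooling. They make tyrosine hydroxylase (Th), the secreted protein Fam19a4, the vesicular glutamate transporter Slc17a8 and the stretch-gated channel Piezo2, and their identity depends on the transcription factor Runx1. Bhlha9 belongs to the basic helix-loop-helix (bHLH) transcription factors, which bind DNA in pairs at E-boxes, short sites of the form CANNTG in which N stands for any base. Members of the family drive neurogenesis and cell type choice in the embryo, often together with E proteins such as Tcf3 and opposed by Id proteins. Bhlha9 itself is best known for its part in limb development.

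The deleted gene was the 1 described gene that passed the test. The threshold was an adjusted p of 0.05 (Benjamini-Hochberg, over all tested genes) in the quasi-likelihood test of edgeR. It was met by 0.00843% of the described genes and by 0.00454% of all tested genes. Bhlha9 (ENSMUSG00000044243, chromosome 11, 76672470 to 76673676 on the plus strand of GRCm38) had 152 and 163 CPM in male WT and 137 and 128 CPM in female WT. It had 0.159 and 0.273 CPM in male KO and 0.471 and 0.25 CPM in female KO. The groups lay far apart in both sexes, and reads over the gene were few but present in every KO library, 9 and 18 in males and 24 and 18 in females. Bhlha9 fell by 8.99 on the log2 scale (SE 0.28, n = 4 against 4, edgeR adjusted p = 0.000211).

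The 250 bases before the annotated start of Bhlha9, from RefSeq on GRCm38.p6 (chr11:76672220-76672469, plus strand), are shown because the gene's own family binds E-boxes. The capitals mark each match to CANNTG, which reads as the same pattern on both strands. The same stretch before Zswim4 (chr8:84237043-84237292, minus strand), the other gene that stood out by its small spread between libraries, is set beside it.
Bhlha9: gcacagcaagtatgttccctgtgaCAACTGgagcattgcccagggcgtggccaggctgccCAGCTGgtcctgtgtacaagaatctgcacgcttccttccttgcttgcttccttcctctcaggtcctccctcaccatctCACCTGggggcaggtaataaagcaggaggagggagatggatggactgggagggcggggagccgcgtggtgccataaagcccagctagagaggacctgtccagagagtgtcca
Zswim4: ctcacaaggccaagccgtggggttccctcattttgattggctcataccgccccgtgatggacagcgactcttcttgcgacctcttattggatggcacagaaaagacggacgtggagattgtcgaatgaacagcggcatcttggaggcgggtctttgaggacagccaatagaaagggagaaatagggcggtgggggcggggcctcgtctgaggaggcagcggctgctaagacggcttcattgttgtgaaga
The stretch before Bhlha9 held 3 matches and that before Zswim4 held 0. Of the 6573 described genes with 1 such window in the RefSeq table, 55.3% held at least 1 match.

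The sorted cells carried the C-LTMR markers in every library. Th lay between 3039 and 5302 CPM, Fam19a4 between 227 and 430 CPM, Slc17a8 between 30.4 and 55.2 CPM, Runx1 between 165 and 254 CPM and Piezo2 between 518 and 864 CPM. Th was among the 10 most abundant genes, together with Tppp3, Aldoa and Prph. KO and WT overlapped for each of these markers, and their log2 fold changes lay between -0.18 (Runx1, SE 0.13) and 0.11 (Piezo2, SE 0.17).

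The libraries held between 50919885 and 71956309 counts, and 3 counts corresponded to between 0.0417 and 0.0589 CPM, a floor that covers counting error only. The first male KO library (male_KO1) stood apart from the other 7 on the first principal component of the described genes, at 64.2 against -36.9 to 15.4, a component that held 23.7% of the variance. The median correlation between libraries was 0.905 for the same sex and genotype and 0.910 for the same sex and other genotype. It was 0.907 for the other sex and same genotype and 0.898 for libraries that differed in both. By the median, replicates were no more alike than KO and WT libraries of the same sex. Summed over their lists, markers of myelinated afferents stood at 2637 CPM in male_KO1 and at 446 to 749 CPM in the other libraries, and C-LTMR markers at 6522 CPM in male_KO1 and at 8512 to 10725 CPM in the others. The part of these markers in the results below was not tested. In sorted bulk samples, fewer cells of a type and less RNA per cell cannot be told apart.

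Beyond Bhlha9, no described gene passed with edgeR, and 414 (3.49%, against 3.56% of all tested genes) had an unadjusted p below 0.05. Of these, 216 were higher and 198 lower in KO. The median log2 fold change was 0.003 over the described genes, a signed value that scaling keeps near 0 and that does not measure effect size. Over the 10375 described protein-coding genes other than Bhlha9, the median absolute log2 fold change was 0.16. The additive term averages the sexes, and 6267 described genes had opposite signs in males and females. For 8488 genes, or 71.6%, the 95% interval of the log2 fold change lay within 2-fold in either direction, and for 3685 genes, or 31.1%, it lay within 1.5-fold. How small a difference could be seen depended on the level. Among the 943 genes of at least 200 CPM, 97% had an interval within 2-fold. Among the 3444 genes of 50 to 200 CPM the share was 95.5%, among the 5501 genes of 10 to 50 CPM it was 68.2%, and among the 1970 genes of 5 to 10 CPM it was 27.0%. The abundant genes of these neurons were among the best measured. Tppp3, which stabilizes microtubules and had the highest mean, gave a log2 fold change of 0.00 (95% interval -0.28 to 0.28). The glycolytic enzyme Aldoa gave -0.03 (-0.24 to 0.18).

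**Figure D1:**
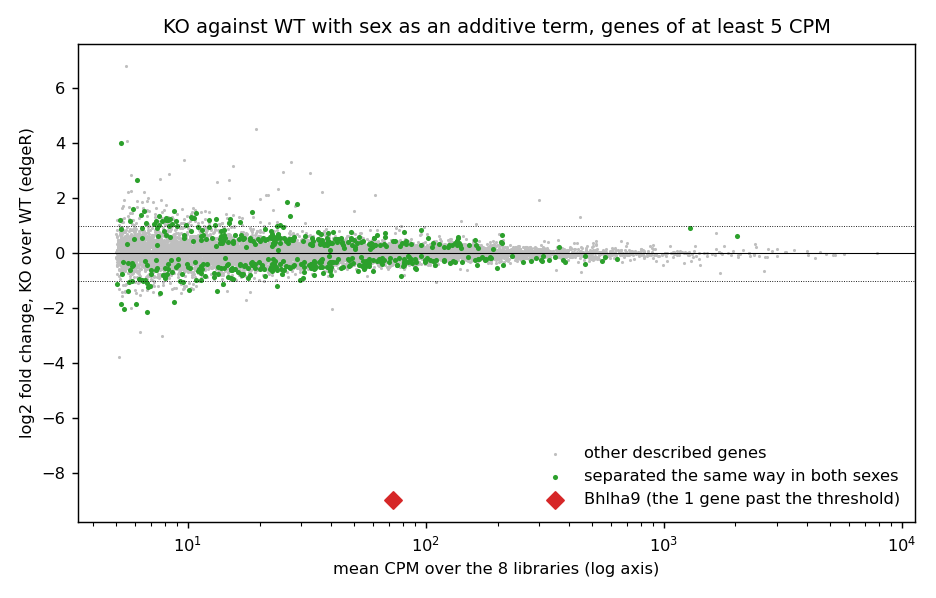
Log2 fold change of KO over WT from edgeR (vertical axis) against mean CPM over the 8 libraries (horizontal axis, log scale) for the 11858 described genes. Dotted lines mark 2-fold, green points are the 486 genes separated the same way in both sexes, and Bhlha9, at -8.99, is the red diamond far below all others.

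Agreement between the sexes was counted next, since males and females share no library. A gene was called separated in a sex when both KO libraries lay above, or both below, the 2 WT libraries of that sex in CPM. Separation in males held for 3423 genes (28.9%) and in females for 3650 genes (30.8%). The same direction in both sexes was shown by 486 genes (4.1%), 222 of them higher (1.87%) and 264 lower (2.23%) in KO. Opposite directions were shown by 607 genes (5.12%). Over all tested genes the shares were 3.89% the same way and 4.84% in opposite ways. All 4 KO libraries lay on 1 side of all 4 WT libraries for 229 genes (1.93%), 106 higher and 123 lower. The sign of the log2 fold change was positive in both sexes for 2761 genes, negative in both for 2830 and opposite for 6267, which is 52.9%. Across genes, which are not independent replicates, male and female log2 fold changes had a Pearson r of -0.13 and a Spearman rho of -0.06 over the 11858 genes. Genes separated the same way in both sexes were thus fewer than genes separated in opposite ways.

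**Figure D2:**
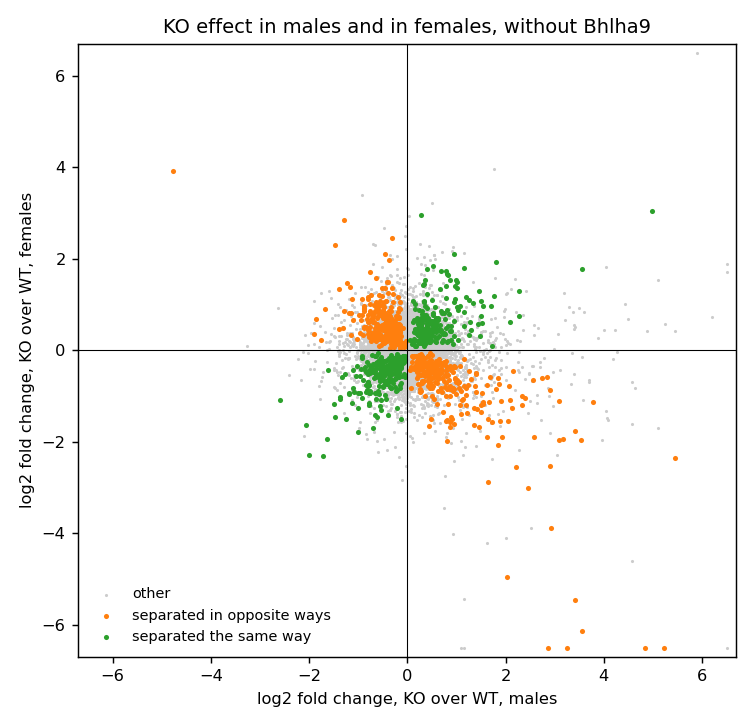
Log2 fold change of KO over WT in males (horizontal axis) and in females (vertical axis) for the described genes other than Bhlha9; points beyond the axes are drawn at the edge. Green points are genes separated the same way in both sexes and orange points are genes separated in opposite ways; the orange points reach farthest in the lower right, higher in male KO and lower in female KO.

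Of the 24 separated protein-coding genes with the smallest edgeR p, 12 in each direction, Bhlha9 passed and the other 23 did not. Those 23 are named below with their values. Each had an edgeR adjusted p of 1. DESeq2, a second count model run on the same counts, called 23 described genes (0.194%), 16 higher and 7 lower in KO, among them Bhlha9 and 16 of these 23. The number called by DESeq2 was between 28 and 76 when 1 library was left out, and 7 genes were called with all libraries and in every such run. They were Bhlha9 and Zswim4, lower in KO, and Kcnq3, Sh2d5, Grm7, Syt12 and Pcdh9, higher in KO. The limit of 5 CPM is on the mean over both genotypes, so a gene low in 1 genotype could meet it through the other. Kcnq3, Sh2d5 and Syt12, with means of 5.22, 6.08 and 5.79 CPM, met it only through their KO libraries.

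Zswim4, which encodes a SWIM-type zinc finger protein, had the smallest edgeR p after Bhlha9. It stood at 44.4 and 41.7 CPM in male WT and at 35.6 and 34.4 CPM in female WT. In KO the values were 20.7 and 22.1 CPM for males and 18.7 and 18.5 CPM for females. All 4 KO libraries lay well below all 4 WT libraries, and replicates lay close together. The log2 fold change was -0.96 (SE 0.14, unadjusted p = 0.000125), close to the same in males (-1.0) and females (-0.92), and DESeq2 gave it an adjusted p of 1.24e-07. Without male_KO1 it was -0.93.

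Kcnq3, higher in KO in both sexes, encodes a subunit of the M-current potassium channel, which damps repetitive firing. It stood at 0.687 and 0.254 CPM in male WT and at 0.397 and 0.779 CPM in female WT, against 25.6 and 4.3 CPM in male KO and 4.26 and 5.55 CPM in female KO. It was below 1 CPM in every WT library and above 4 CPM in every KO library, highest in male_KO1. Its mean of 5.22 CPM lay just above the limit of 5 CPM, with male_KO1 the largest part of it. Its log2 fold change was 4.01 (SE 0.69, DESeq2 adjusted p = 3.73e-05) and 3.12 without male_KO1.

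Grm7, the presynaptic metabotropic glutamate receptor that couples to inhibitory G proteins, stood at 11.4 and 12.8 CPM in male WT and at 6.77 and 5.37 CPM in female WT. It stood at 27.3 and 21.4 CPM in male KO and at 20.4 and 14.1 CPM in female KO. The lowest KO library was above the highest WT library, and within each sex the gap was wide. The log2 fold change was 1.25 (SE 0.23, DESeq2 adjusted p = 0.00156), and 1.25 without male_KO1.

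Sh2d5, a neuronal protein with an SH2 domain, stood at 1.1 and 0.745 CPM in male WT and at 3.35 and 2.29 CPM in female WT. It stood at 9.7 and 11.9 CPM in male KO and at 8.88 and 10.7 CPM in female KO. The KO libraries of both sexes sat at nearly 1 level, whereas female WT sat above male WT. The log2 fold change was 2.66 (SE 0.43, DESeq2 adjusted p = 6.12e-05), with 3.55 for males and 1.79 for females. That gap of 1.77 (SE 0.64) did not pass in edgeR (adjusted p = 0.98).

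Pcdh9, a protocadherin of the cell surface, stood at 9.39 and 10.5 CPM in male WT and at 8.36 and 9.87 CPM in female WT. It stood at 50.8 and 17.5 CPM in male KO and at 20.4 and 21.5 CPM in female KO. The WT libraries were tightly grouped, and male_KO1 was far above the other 3 KO libraries. The log2 fold change was 1.48 (SE 0.33, DESeq2 adjusted p = 0.0165) and 1.05 without male_KO1. Syt12, a synaptotagmin that the rule for named genes did not reach and that was picked after its DESeq2 result was seen, stood at 2.09 and 5.3 CPM in male WT and at 0.276 and 0.541 CPM in female WT. It stood at 20.2 and 5.04 CPM in male KO and at 7.56 and 5.23 CPM in female KO. Its male libraries overlapped, so it was not counted among the separated genes.

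The other separated genes that were higher in KO differed by less. Syt14, another synaptotagmin family member, lay between 7.28 and 10.8 CPM in WT and between 14.7 and 19.9 CPM in KO. Its log2 fold change was 1.0 (SE 0.23). Adss, which makes adenylosuccinate on the way to AMP, lay between 13.2 and 19.1 CPM in WT and between 23.3 and 37.8 CPM in KO. The lysosomal palmitoyl-protein thioesterase Ppt1, which removes palmitate from proteins, lay between 45.5 and 52.3 CPM in WT and between 64.2 and 81.0 CPM in KO. For all 3 genes the genotypes did not overlap. The ubiquitin ligase Herc2 was the most abundant of the 12, at 109 to 119 CPM in WT and 140 to 176 CPM in KO, and its log2 fold change of 0.45 (SE 0.11) was the smallest of them. Fam13a, Ccdc91 and the transcriptional corepressor Runx1t1 had log2 fold changes of 1.26, 0.75 and 0.96 and no overlap of genotypes. Pak1, a kinase activated by Rac and Cdc42, was separated within each sex but not across them. Female WT stood at 18.1 and 18 CPM and female KO at 25 and 38.4 CPM, while male WT stood at 29.9 and 37.95 CPM.

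Ubtf, the factor that opens ribosomal RNA genes to RNA polymerase I, stood at 81.1 and 77.6 CPM in male WT and at 68.8 and 65.4 CPM in female WT. It stood at 47.6 and 39.9 CPM in male KO and at 49.3 and 50.4 CPM in female KO. The genotypes did not overlap, and the log2 fold change was -0.65 (SE 0.13, DESeq2 adjusted p = 0.0275).

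Polg, the catalytic subunit of the polymerase that copies mitochondrial DNA, stood at 34.9 and 29.9 CPM in male WT and at 34.0 and 32.7 CPM in female WT. It stood at 8.07 and 16.6 CPM in male KO and at 15.0 and 18.2 CPM in female KO. The WT libraries were within a narrow band and all KO libraries lay well below it. The log2 fold change was -1.20 (SE 0.26, DESeq2 adjusted p = 0.0202) and -0.98 without male_KO1. Genes encoded by the mitochondrion itself were at 0 counts throughout, and no transcript of that genome could be set beside it.

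Ppp1r26, a regulatory partner of protein phosphatase 1, lay between 8.27 and 19.7 CPM in WT and between 2.47 and 4.93 CPM in KO, with a log2 fold change of -1.79 (SE 0.38). It was the steepest of the 11 lower genes other than Bhlha9. Iqce, a ciliary protein of Hedgehog signalling, lay between 15.4 and 22.6 CPM in WT and between 9.16 and 11.1 CPM in KO. Zdhhc15, which attaches palmitate to proteins, lay between 10.02 and 17.2 CPM in WT and between 5.11 and 6.87 CPM in KO. None of these 3 overlapped between genotypes. The polarity scaffold Scrib had a log2 fold change of -1.33 (SE 0.31) and the oxygenase Jmjd6 one of -0.79 (SE 0.20). For Ppip5k1, a kinase of inositol pyrophosphate synthesis, and Fam89a the values were -0.48 (SE 0.12) and -0.84 (SE 0.22). Lime1, with -1.13 (SE 0.26), is uncertain as a gene, because Zgpat exons on the same strand cover 92.5% of its exonic bases and reads over several genes were counted in each. Of the other 22 genes, Polg had the largest share of exonic bases overlapped by another gene, 8.57%.

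**Figure D3:**
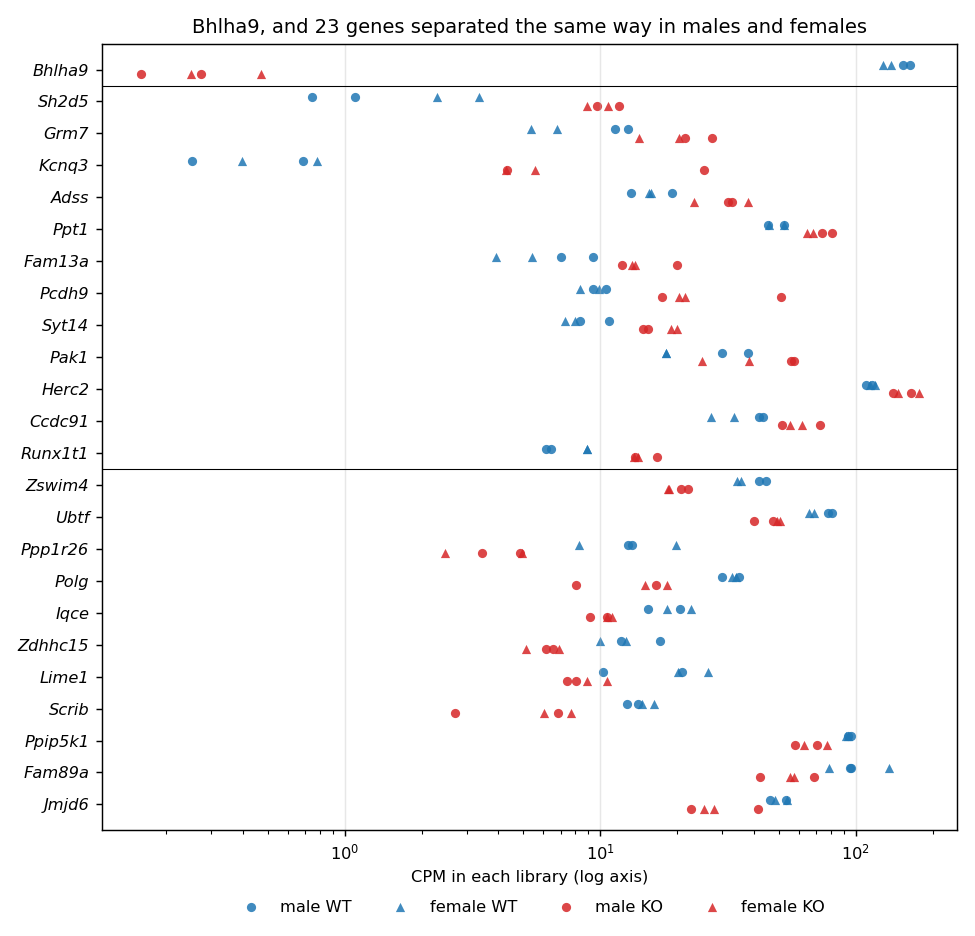
CPM in each of the 8 libraries (log axis) for Bhlha9 and the 23 other genes, 12 higher and 11 lower in KO, with blue for WT, red for KO, circles for males and triangles for females. Red and blue do not meet within a sex in any row, and in Pak1 and Lime1 they overlap across the sexes.

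The separated genes differed from the rest in length and base composition, which the rule had not used. The 209 protein-coding genes separated higher had a median exonic length of 6376 bases, a median span of 38.1 kb and a median GC content of 47.3% in the longest transcript. The 233 separated lower, Bhlha9 left out, had medians of 4164 bases, 16.5 kb and 52.5%. All 10375 described protein-coding genes had medians of 4608 bases, 25.3 kb and 49.9%. In the quartile of genes with the longest exonic sequence 89 were separated higher and 26 lower, and in the shortest quartile 31 and 62. The quartile counts include Bhlha9, which is among the 62. In the longest quartile the median log2 CPM, centred on each gene's mean over the libraries, was 0.069 and 0.014 in male KO. It was 0.140 and -0.044 in female KO and between -0.080 and 0.059 in WT, so KO and WT libraries overlapped. In the quartile of highest GC content 32 were separated higher and 86 lower, and in that of lowest GC content 78 and 45. When each library's values were corrected for a smooth trend in GC content and length, a step chosen after this pattern was seen, 511 genes were separated the same way and 634 in opposite ways. Of the 486 genes separated as counted, 349 were also separated after the correction, and so were all 23 named genes. Those 23 had been picked by small p among genes already separated, so their result says little about the correction. The median exonic lengths then stood at 5311 bases for the higher and 4500 bases for the lower genes. E-boxes in the window before the start were present for 49.6% of the 123 higher genes with 1 window and for 49.0% of the 147 lower ones. Among the 6573 described genes with 1 window the share was 55.3%.

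**Figure D4:**
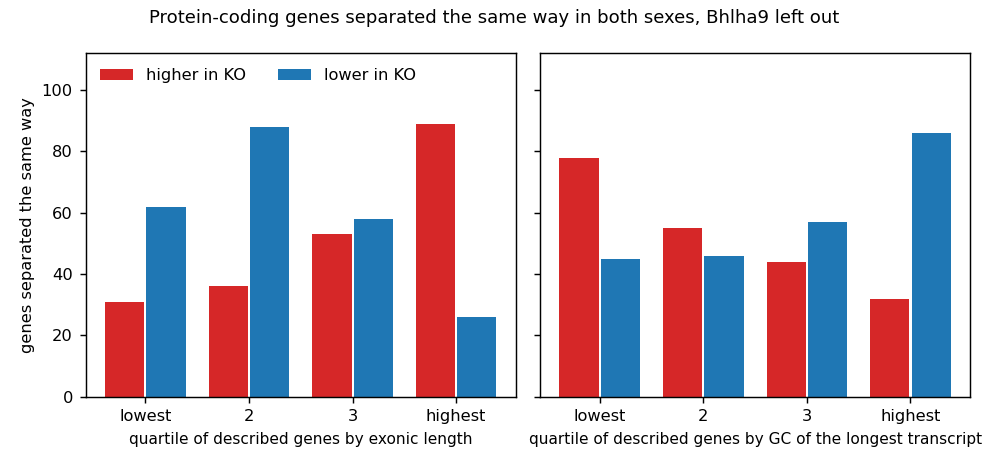
Number of protein-coding genes separated the same way in both sexes (vertical axis) in each quartile of the described genes by exonic length (left) and by GC content of the longest transcript (right), with red for higher and blue for lower in KO. The red bars grow from 31 to 89 with length and shrink from 78 to 32 with GC content. The blue bars include Bhlha9, although the title above the panels says it was left out.

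Gene groups were described by their members' values, and no list was tested as a set. Besides Bhlha9, no member of any list passed with edgeR. Among transcription factors of the sensory lineage, 4 of 17 described members were separated lower in both sexes and 0 higher, against 2.23% lower among all described genes. The 4 were Insm1, Tlx3, Pou4f1 and Ebf3. The list median was -0.08, and 0.02 when members down to 1 CPM were included. Insm1, a zinc finger factor of neuroendocrine and neuronal precursors, stood at 15.8 and 16.6 CPM in male WT and at 25.4 and 21.6 CPM in female WT. It stood at 13.3 and 11.4 CPM in male KO and at 8.09 and 9.58 CPM in female KO. All KO libraries were below all WT libraries, by a wide margin in females and a narrow one in males, and the log2 fold change was -0.90 (SE 0.26, unadjusted p = 0.00989).

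Tlx3, a homeobox factor of glutamatergic sensory neurons, stood at 149 and 125 CPM in male WT and 106 and 114 CPM in male KO. In females it stood at 169 and 192 CPM in WT and 137 and 147 CPM in KO. Pou4f1, the pan-sensory factor Brn3a, stood at 296 and 291 CPM in male WT and 247 and 221 CPM in male KO, and at 401 and 355 CPM in female WT and 294 and 350 CPM in female KO. Within each sex KO was below WT for both genes, and across the sexes the genotypes overlapped. Their log2 fold changes were -0.33 (SE 0.11) for Tlx3 and -0.28 (SE 0.11) for Pou4f1. Ebf3, which the rule for named genes did not reach, had -0.56 (SE 0.21). Runx1 had -0.18 (SE 0.13).

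Possible partners and opponents of a bHLH factor (E proteins, Id proteins, Hes and related genes) formed a list with 13 described members. Of these, 11 had a negative and 2 a positive log2 fold change, against 49.5% negative over all described genes, with a median of -0.25 against 0.003. The median was -0.33 in males and -0.07 in females, and 7 of the 13 had opposite signs in the sexes. The median of the additive fit was -0.13 without the second male WT library and -0.10 without the second female WT library. Of the 13, 3 were separated in opposite ways in the sexes, against 5.12% of all described genes. Hes6 was the 1 member separated the same way in both sexes, lower in KO, against 2.23% of all described genes. It stood at 151 and 122 CPM in male WT, 95.1 and 119 CPM in male KO, 151 and 165 CPM in female WT and 126 and 126 CPM in female KO, so the male groups nearly touched. Its log2 fold change was -0.34 (SE 0.12). The Notch target Hes1 had -0.94 (SE 0.36), with overlap in females, and the E protein Tcf3 had -0.35 (SE 0.30).

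Among the potassium channel genes, Kcnq3, Kcnb2 and Kcna2 were separated higher in both sexes and Kcnn1 was separated lower, against 1.87% higher and 2.23% lower of all described genes. Kcnb2, a delayed rectifier subunit, stood at 62.3 and 58.4 CPM in male WT and 102 and 94.5 CPM in male KO. In females it stood at 74.4 and 43.3 CPM in WT and 121 and 89.2 CPM in KO. The genotypes did not overlap in either sex or across them, and the log2 fold change was 0.77 (SE 0.19, unadjusted p = 0.00473). Kcnk4, a mechanosensitive background potassium channel, had 2.70 (SE 0.96), with overlap in females. Kcnq3 and Kcnk4, with means of 5.22 and 7.65 CPM, met the limit of 5 CPM only through their KO libraries. Of the 43 described potassium and HCN channel genes, 5 were separated the same way and 5 in opposite ways.

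Vesicle release genes gave 3 separated higher and 0 lower among 37 members, against 1.87% and 2.23% of all described genes, and 2 further members were separated in opposite ways. The 3 were the active zone scaffolds Bsn and Erc2 and the vesicle GTPase Rab3c. Bsn stood at 86.8 and 68.6 CPM in male WT, 162 and 94.4 CPM in male KO, 87.2 and 89.5 CPM in female WT and 137 and 90.6 CPM in female KO. The second KO library of each sex lay just above WT. Its log2 fold change was 0.54 (SE 0.21) and 0.34 without male_KO1. Rab3c and Erc2 had 0.28 (SE 0.11) and 0.24 (SE 0.11), and the list median was 0.06.

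Receptors coupled to inhibitory G proteins gave 2 separated higher of 9 members, Grm7 and the serotonin receptor Htr1d, against 1.87% of all described genes. Htr1d had 0.22 (SE 0.13), and 7 of the 9 had opposite signs in the sexes. Of 59 genes of the MAP kinase cascade, Mapk10 was separated higher and Map2k7, Mapk4, Nras and Spred1 lower, against the same 1.87% higher and 2.23% lower. A further 3 were separated in opposite ways, against 5.12%. Nras nearly touched in males, at 81.3 CPM in KO and 81.5 CPM in WT, with -0.11 (SE 0.10). Map2k7 nearly touched in females, at 44.6 CPM in KO and 45.2 CPM in WT, with -0.32 (SE 0.14). Exons of Gm49320 on the same strand cover 35.2% of the exonic bases of Map2k7. The Ras pathway inhibitor Spred1 had -0.82 (SE 0.31). Among 13 voltage-gated sodium channel genes, the auxiliary subunit Scn4b was separated higher, at 242 CPM in male_KO1 and 134 to 141 CPM in the other KO libraries. With all libraries the log2 fold change of Scn4b was 0.54 (SE 0.19), and without male_KO1 it was 0.35. Among 26 ionotropic receptors, the ATP-gated channel P2rx2 was separated lower. It stood at 9.53 and 7.56 CPM in male WT and 16.0 and 11.1 CPM in female WT. It stood at 0.159 and 3.98 CPM in male KO and 0.412 and 5.16 CPM in female KO. KO replicates differed widely from each other in both sexes, and the log2 fold change was -2.15 (SE 0.96). The mean of P2rx2, 6.73 CPM, met the limit of 5 CPM only through its WT libraries.

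Among 24 neurofilament and tubulin genes, 12 had a positive and 12 a negative log2 fold change, with a median of 0.002. Nefl and Nefm were separated higher and 0 lower, against 1.87% and 2.23% of all described genes. Nefl stood at 1716 and 1667 CPM in male WT, 4535 and 2381 CPM in male KO, 1419 and 1319 CPM in female WT and 1609 and 1595 CPM in female KO. Its log2 fold change was 0.62 (SE 0.23) with all libraries and 0.34 without male_KO1. Nefh, the heavy neurofilament chain and a marker of myelinated afferents, stood at 1583 CPM in male_KO1 and at 61.6 to 291 CPM elsewhere. Its log2 fold change was 1.93 (SE 0.70) with all libraries and 1.0 without male_KO1. Exons of Nefm cover 32.8% of the exonic bases of Nefl in the annotation.

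Several groups showed no member separated the same way in both sexes, against 4.1% of all described genes. In the shorter lists a count of 0 is near that share. Among 78 described subunits of oxidative phosphorylation the lowest and highest log2 fold changes were -0.17 and 0.35, and 73 had a 95% interval within 2-fold. Their median was 0.24 in males and -0.11 in females. In the additive fit it was 0.07 with all libraries and -0.15 without male_KO1. The 58 cytosolic ribosomal protein genes had a median of 0.03 and the 25 cholesterol synthesis genes one of 0.07, and 56 and 23 of them had an interval within 2-fold. Without male_KO1 these medians were -0.16 and 0.18. None of the 14 described C-LTMR markers was separated the same way, and all 14 intervals lay within 2-fold. Their median was -0.32 in males and 0.17 in females, and 11 of the 14 had opposite signs in the sexes. Within males 8 of the 14 (57.1%) were separated, against 28.9% of all described genes. Within females it was 4 (28.6%), against 30.8%, and 2 of the 14 were separated in opposite ways, against 5.12%. Lysosomal and vacuolar ATPase genes gave 2 lower of 37, against 2.23% of all described genes. They were Atp6v0e2 and Npc1, both with -0.25 (SE 0.13) and unadjusted p of 0.0822 and 0.0984.

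The medians of several lists had opposite signs in the sexes. Peptidergic nociceptor markers had a median of 1.73 in males and -2.37 in females over 9 genes. Glia and Schwann cell markers had 1.02 and -0.42 over 11, immediate early genes 0.83 and -0.37 over 18, and nerve injury genes 0.42 and -0.23 over 21. The medians of nonpeptidergic and pruriceptor markers had the same sign, 0.41 in males and 0.07 in females over 8. Of the 8, 4 were higher in both sexes and 4 had opposite signs, against 23.3% and 52.9% of all described genes. Summed peptidergic markers lay between 502 and 2092 CPM in KO and between 705 and 2010 CPM in WT, and summed glial markers between 3516 and 6142 CPM and between 3843 and 6045 CPM, so the genotypes overlapped. No red blood cell marker reached 5 CPM. The part of these cells in the KO effects was not tested. The difference between the sexes in the KO effect passed for 0 described genes (0%) in edgeR, with 492 (4.15%) at an unadjusted p below 0.05, and for 67 (0.565%) in DESeq2.

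**Figure D5:**
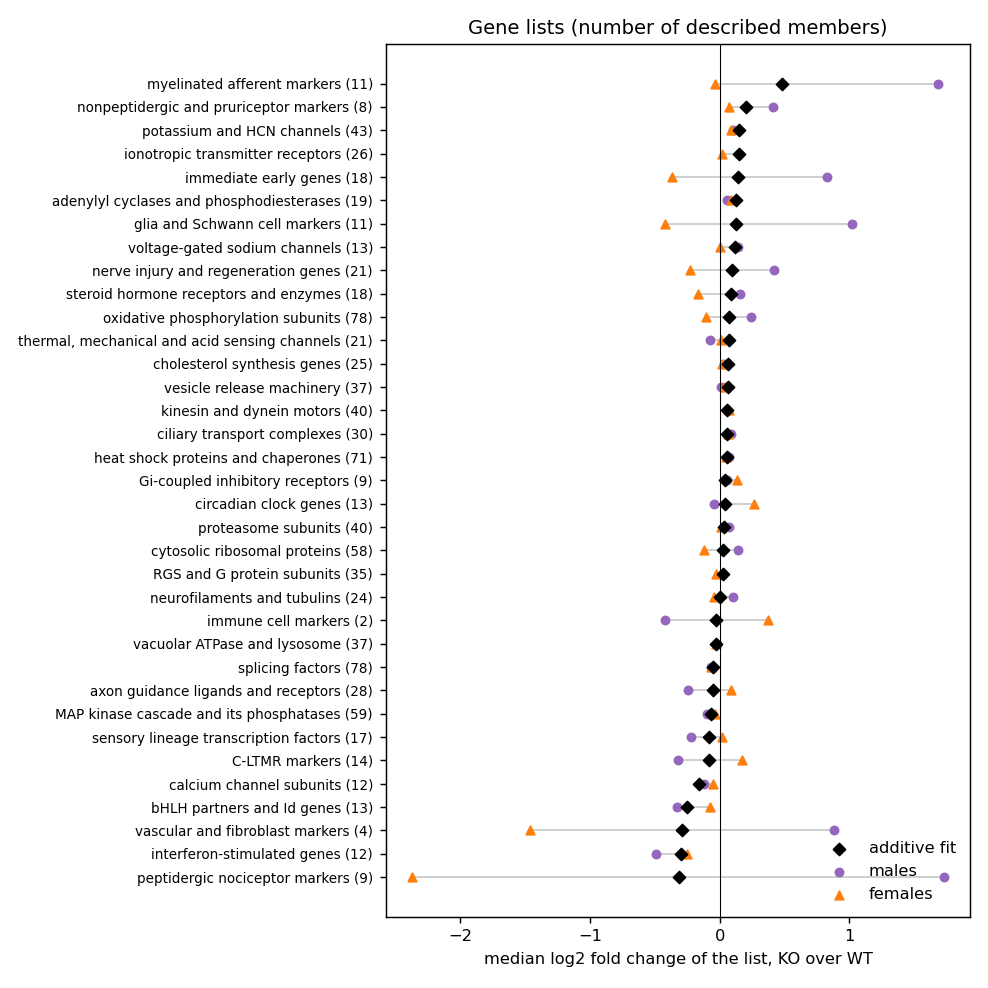
Median log2 fold change of KO over WT for each list, with the number of described members in brackets, from the additive fit (black diamonds), in males (purple circles) and in females (orange triangles). The markers of peptidergic neurons run from -2.37 in females to 1.73 in males, whereas potassium channels, splicing factors and vacuolar ATPase genes lie close together in the sexes.

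The submitters analysed males and females separately, and their tables list genes that passed in 1 sex. The authors' deposited table for males holds 150 genes, 140 of them higher in KO, and the authors' deposited table for females holds 13, 3 of them higher. Both of the authors' deposited tables hold Bhlha9 and Etv1, and for Etv1 the authors' deposited tables give a log2 fold change of 1.39 in males and of -1.61 in females. Of the 101 described genes in the authors' deposited table for males, Bhlha9 left out, 39 had the same sign in the female libraries and the rest the opposite sign, which 52.9% of all described genes had. Of those 101, 4 were separated the same way in females (Sh2d5, Kcnq3, Nfkbiz and Ptprt) and 20 the opposite way, against 30.8% of all described genes separated in females in either direction. Of the 10 such genes in the authors' deposited table for females, 2 had the same sign in the male libraries, 0 were separated the same way and 4 the opposite way, against 28.9% separated in males in either direction. Ptprt, a receptor tyrosine phosphatase, stood at 15.5 and 8.56 CPM in male WT, 39.3 and 44.0 CPM in male KO, 17.4 and 3.59 CPM in female WT and 56.1 and 25.1 CPM in female KO. Its genotypes did not overlap, and the log2 fold change was 1.86 (SE 0.49).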

How the data were processed

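Sorted GFP-positive C-LTMRs gave RNA from which SMART-Seq v4 made full-length cDNA, turned into libraries with Nextera XT, per the labels' protocols. No molecular identifiers are described, so counts include PCR copies. The deposited count file holds whole-number read counts per gene, made with featureCounts 1.6.1 over exons of Ensembl release 97 on GRCm38, unstranded, with reads over several genes counted in each, per the file headers. The submitters' processing notes name bcl2fastq 2.17.1.14, DESeq2 1.14.1 and Subread 1.6.4, with the aligner not given in the sources used here. The authors' deposited tables for each sex hold log2 fold changes and their standard errors (log2), a test statistic (a score) and p-values, per the file headers, for genes that passed in that sex.

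CPM are raw counts divided by the library total. Genes passing filterByExpr (22013) were tested in R 4.3.3 by edgeR 4.0.16 (quasi-likelihood F test, TMM, robust, sex plus genotype, two-sided), with p-values adjusted over all of them. TMM factors lay between 0.979 and 1.022, and the biological coefficient of variation was 81.9%. SE are those of the edgeR fit with its quasi-likelihood dispersion, and 95% intervals use its degrees of freedom. The additive edgeR fit was tested on simulated counts that held no sex effect and no outlying library. The other procedures were not tested on simulated data. Alternatives were DESeq2 1.42.0, voom of limma 3.58.1, other scalings, filters and models, each library left out, and, added after seeing the data, offsets for GC content and length and DESeq2 with each library left out. Chi-square per degree of freedom between replicates was 106 to 294, so no library was a copy of another.

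Replicate numbers were not treated as pairs: deviations of same-numbered libraries from their group means correlated between -0.0927 and 0.176. The genes, lists and tests were chosen with earlier results of these data known. Named genes were Bhlha9, genes that passed, the 12 higher and 12 lower named protein-coding genes with the smallest edgeR p among those separated the same way, up to 3 members of each list with the smallest p, the 10 most abundant genes and 6 C-LTMR markers; others are named where a count of 5 or fewer needed it, after their values were seen. Sequences are from RefSeq, GRCm38.p6, and lengths, GC content and overlaps from GENCODE vM21.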

Additional observations from a re-analysis of the deposited data

Results flagged for a closer look

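In 18 of 278 groups of 4 libraries (a named gene in KO or in WT), 1 library lay far from the other 3; chance alone gives about 1 in 20 such groups. Of these, 7 were in male_KO1. It stood at 25.6 CPM for Kcnq3 (the other KO libraries 4.26 to 5.55), 50.8 CPM for Pcdh9 (17.5 to 21.5), 1583 CPM for Nefh (68.8 to 291) and 208 CPM for Ldhb (61.6 to 72.9). It also stood at 242 CPM for Scn4b (134 to 141), 27.6 CPM for Dcn (0 to 3.49) and 115 CPM for Npy (0.0196 to 0.0556). Nefh and Ldhb mark myelinated afferents, Dcn fibroblasts, and Npy is a neuropeptide induced by nerve injury.

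The second male KO library stood at 16.1 CPM for Kit (0.334 to 2.57) and at 71.6 CPM for Atp5o (87.9 to 90.6). In the WT libraries the single values were 21.8 CPM for Pdgfra, 11.7 CPM for Asic3 and 11.9 CPM for Kif20a in the second female library. The first female WT library stood at 24.5 CPM for Dcn, 30.2 CPM for Spred1 and 77.8 CPM for Srsf3. In male WT the values were 68.6 CPM for Bsn and 236 CPM for Ndufa10 in the second library and 7.7 CPM for Npy in the first. No difference between the sexes in the KO effect of a named gene passed in edgeR.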

How the results depend on the processing

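Bhlha9 was the 1 described gene past the threshold with edgeR under every scaling, filter and model tried, with limma-voom, and with any single library left out (log2 fold change -9.30 to -8.77). DESeq2 called 23 described genes with all libraries, 19 with offsets for GC content and length (17 of them among the 23), and more with 1 library left out, against 1 in edgeR: 30 and 35 without the first or second male WT library, 60 and 63 for male KO, 51 and 38 for female WT, and 28 and 76 for female KO. The difference between the sexes passed for 0 genes in edgeR, also with any library left out, and for 67 in DESeq2. Genes separated the same way in both sexes numbered 482 to 591 under other scalings and level limits down to 2 CPM, 402 at 10 CPM, and 79 when the nearest libraries had to lie 1.2-fold apart, against 98 in opposite ways. Leaving out a library was not applied to that count, since it loosens the criterion. With a replicate block, 1 gene passed again, Bhlha9 (-9.01, edgeR adjusted p = 0.0119); the numbers do not pair the samples. Of 138 named genes besides Bhlha9, 122 kept their sign under all alternatives, and of 35 list medians 14 did; many of these genes were named because their groups did not overlap, which largely fixes the sign. Precision was lowest for genes of 5 to 10 CPM, with a median SE of 0.42 against 0.15 at 200 CPM and above.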
